A study of Homo sapiens with 4 samples.

Results

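The kinesin motor family comprised 43 of the 20323 gene rows of the count files: every gene whose symbol is KIF followed by a number, together with the minus-end motors KIFC1, KIFC2 and KIFC3 and the kinetochore motor CENPE. By main role, 15 were grouped as mitotic kinesins, 17 as transport kinesins and 11 as other kinesins of cilia, signalling and microtubule disassembly. Poly(A) RNA was sequenced from 5-FU-resistant HCT8, a 5-fluorouracil-resistant form of a human colorectal cancer cell line. Control cells carried negative control plasmids (2 libraries) and the other group carried METTL14 overexpression plasmids (2 libraries). METTL14 pairs with METTL3 in the complex that writes N6-methyladenosine (m6A) into mRNA. Both groups received 100 ug/mL cycloheximide, a blocker of translation elongation, so the controls carry that treatment too. The submitters state that the experiments were done independently on 2 occasions, and all libraries come from 1 resistant line.

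Kinesins are motor proteins that use ATP to walk along microtubules or to take their ends apart. Mitotic kinesins build the spindle, move and align chromosomes and organise the midzone where the cell divides, and their transcripts are known to rise as dividing cells approach mitosis. Transport kinesins carry vesicles, organelles, mRNA and ciliary cargo, in part through light chains and adaptors that link the motor to its load.

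Total counts ranged from 19206661 to 20161082 per library, and 14411 to 14896 gene rows had at least 1 count per library. The METTL14 transcript stood at 24.5 and 30.7 CPM (counts scaled to the library size after TMM normalization) in the controls and at 390.0 and 421 CPM in the libraries labelled as overexpressing it (14.7-fold higher, edgeR adjusted p = 7.32e-05). Of 11 colorectal epithelium markers, 10 reached a mean of 1 CPM in the controls and 11 with METTL14, and their summed level was 11945 to 18263 CPM in the controls and 9175 to 9397 CPM with METTL14. Most of that sum is KRT8 and KRT18, which were lower (log2 fold changes -0.90 and -0.92). Of all 11 markers 4 were higher, 3 were lower and 4 were not called, with a median log2 fold change of 0.25. Shares over all tested genes were 27.0% higher and 28.1% lower. At the same level, 3 of 5 fibroblast markers passed in both groups, as did 0 of 5 neural markers, while 1 and 2 of 5 leukocyte markers and 0 and 1 of 3 endothelial markers passed in controls and METTL14 libraries, and the T cell gene CD3E was at 0 in every library. Of these markers of other cell types, 4 of 5 fibroblast, 2 of 5 leukocyte, 1 of 3 endothelial and 1 of 5 neural markers were tested. Among those tested, 4 were called higher with METTL14 and none was called lower, beside the same 27.0% and 28.1%. The markers called higher were PDGFRB (1.38) and COL1A1 (0.50) of fibroblasts, CD14 (1.75) of monocytes and GFAP (3.13) of glia. Other members went the other way. Both METTL14 libraries lay below both controls for COL1A2 of fibroblasts (-0.79, not called). The same was so, at few counts and without a test, for LUM of fibroblasts, CDH5 of endothelium and SNAP25 of neurons. GFAP reached the minimum count of 10 for testing only in the METTL14 group, so it could not have been called lower. Of its exon bases, 29.8% also lie in CCDC103 on the opposite strand, which leaves its level less certain. The mean of GFAP went from 0.0770 CPM in the controls to 0.729 CPM with METTL14, which is most of the rise in the neural sum given next. The summed levels of the markers of other cell types went from 11.3 and 13.9 to 18.6 and 17.1 CPM for fibroblasts, from 1.61 and 2.21 to 2.82 and 3.65 CPM for leukocytes, from 0.988 and 0.410 to 1.85 and 1.53 CPM for endothelium and from 0.572 and 0.564 to 1.28 and 1.28 CPM for neural cells. Their part in the kinesin values was not tested. The METTL14 pair of libraries differed less from each other than the control pair did (chi-square per degree of freedom 3.34 against 29.8). P-values measure the spread between these 2 libraries per group, and an exact permutation test of 2 against 2 cannot go below p = 0.333.

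Of the 43 kinesin genes, 36 had enough counts to be tested. Of these 36, 17 were lower with METTL14, 10 were higher and 9 were not called at an adjusted p of 0.05 (edgeR quasi-likelihood test, Benjamini-Hochberg adjusted over 12700 genes). Among all tested genes, 28.1% were lower and 27.0% were higher, or 55.1% in either direction. KIF12 and KIF17 reached the minimum count of 10 only in the group where they were high, so they had to differ to be tested at all. Of the other 34, 16 were lower, 9 were higher and 9 were not called. The 7 kinesins that were not tested were nearly silent. KIF2B, a depolymerase gene, and the ciliary kinesins KIF6 and KIF19 had no count in any library, and a count of 0 allows up to 0.156 CPM of the total counts in the smallest library (3 counts, counting error only). KIF4B, KIF5A, KIF5C and KIF25 had at most 3 counts in a library. KIF5A and KIF5C are the neuronal heavy chains of conventional kinesin.

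**Figure D1:**
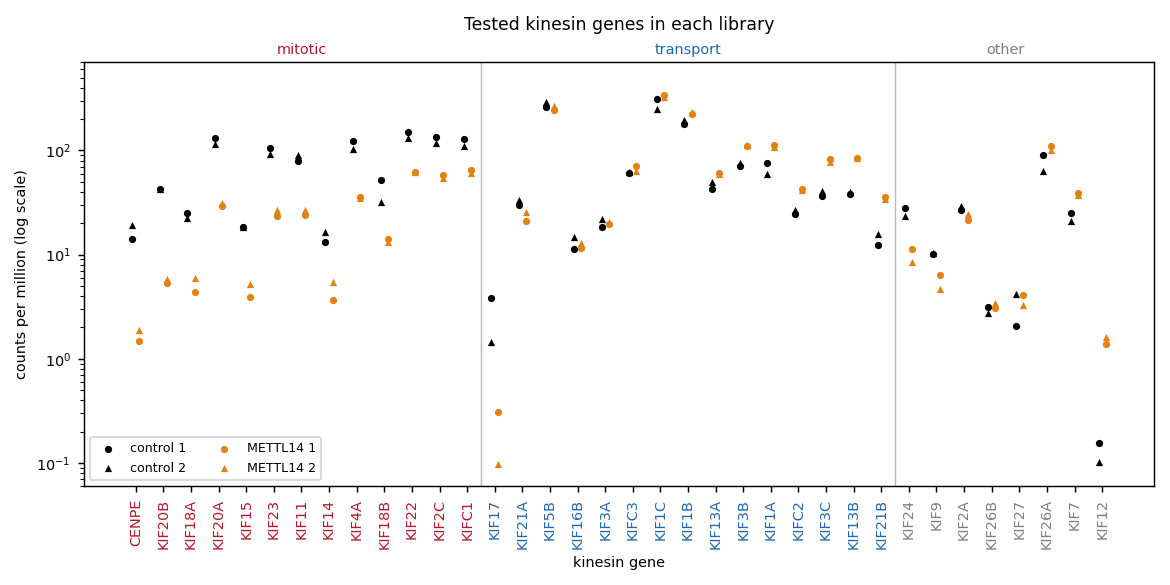
Level of the 36 tested kinesin genes in each of the 4 libraries, in CPM on a log axis. Black symbols are the 2 control libraries and orange symbols the 2 METTL14 libraries, and genes are grouped as mitotic, transport and other kinesins. Both METTL14 libraries lie below both controls for all 13 mitotic kinesins, which in control replicate 1 run from KIF14 at 13.2 CPM to KIF22 at 152 CPM.

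All 13 tested mitotic kinesins were lower with METTL14, and 12 of them at least 2-fold, where 8.80% of all tested genes were called at least 2-fold lower. Their log2 fold changes ran from -3.29 (CENPE) to -0.92 (KIFC1) with a median of -1.75, and the median of all tested genes was -0.01. In each of the 13 both METTL14 libraries were below both controls, which was so for 40.0% of tested genes (groups without overlap in either direction made up 79.8%). Each of the 13 calls was also made under every alternative run. The class depends on where KIF2A, a depolymerase of spindle poles and of neurons, is placed. With KIF2A counted as mitotic, the same 13 were lower, KIF2A was not called (-0.28) and the median was -1.72. Markers of dividing cells moved in the same direction. All 10 tested division markers were lower, with a median log2 fold change of -1.5, among them CCNB1, cyclin B1 (-1.96), CCNB2, cyclin B2 (-1.72), MKI67, the proliferation antigen Ki-67 (-1.77), and CCNA2, cyclin A2 (-1.85). Their part in the kinesin values was not tested, and in these bulk samples fewer dividing cells and less kinesin mRNA per dividing cell cannot be told apart.

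Promoter sequence is shown for mitotic kinesins because the members moved together. The tested mitotic kinesins all had an entry in the RefSeq table of promoter windows (GRCh38.p14, 250 bases before to 50 after the start). Each window was searched on both strands for TTTGAA and its variant TTCGAA, the letters of the CHR element found in many cell cycle promoters, and for CCAAT, the CCAAT box. The letters TTTGAA or those of TTCGAA were present in 10 of 13 mitotic kinesins (76.9%), against 1 of the 11 transport kinesins with an entry (9.09%, KIF5B) and 15.2% of the 10128 tested genes with an entry. In all 10 mitotic windows a match began between 60 bases before and 30 bases after the start, a stretch chosen after the positions were seen. Matches in that stretch were found in 4.35% of tested genes and in no transport kinesin. CCAAT was present in 10 of the 13 (76.9%), in 3 of the 11 transport kinesins (27.3%) and in 43.1% of tested genes. A TTTGAA or TTCGAA match in that stretch, with CCAAT anywhere in the same window, was held by 9 of the 13 mitotic kinesins (69.2%). The same was held by 2.03% of tested genes. This contrast too rests on the stretch chosen after the positions were seen. A match is a description of letters, and no binding was measured.

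The stretches below run 5′ to 3′ on the strand of the gene, from 120 bases before to 30 bases after the start, with matches to the searched letters on either strand in capitals, so that TTCAAA stands for TTTGAA on the opposite strand and ATTGG for the CCAAT box there. KIF23 (chr15:69414229-69414378, plus strand), KIF4A (chrX:70289984-70290133, plus strand), KIF11 (chr10:92593010-92593159, plus strand) and KIF18A (chr11:28108127-28108276, minus strand) hold both kinds of letters close together.
KIF23: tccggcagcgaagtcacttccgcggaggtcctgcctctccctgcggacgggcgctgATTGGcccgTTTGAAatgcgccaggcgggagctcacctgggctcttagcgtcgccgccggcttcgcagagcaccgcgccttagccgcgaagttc
KIF4A: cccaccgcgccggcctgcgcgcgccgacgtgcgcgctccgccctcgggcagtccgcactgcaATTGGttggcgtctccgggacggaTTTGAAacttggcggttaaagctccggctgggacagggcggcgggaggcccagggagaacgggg
KIF11: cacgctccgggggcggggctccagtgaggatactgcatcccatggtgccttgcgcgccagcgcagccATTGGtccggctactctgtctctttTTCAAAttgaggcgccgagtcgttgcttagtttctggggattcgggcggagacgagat
KIF18A: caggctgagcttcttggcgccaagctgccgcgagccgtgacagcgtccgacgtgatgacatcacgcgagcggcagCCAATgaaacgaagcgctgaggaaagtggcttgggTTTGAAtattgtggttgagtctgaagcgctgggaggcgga
KIFC1 (chr6:33391703-33391852, plus strand), the member with the smallest fall, and KIF18B (chr17:44947744-44947893, minus strand), the paralog of KIF18A, each hold 2 CCAAT matches and 1 TTTGAA match.
KIFC1: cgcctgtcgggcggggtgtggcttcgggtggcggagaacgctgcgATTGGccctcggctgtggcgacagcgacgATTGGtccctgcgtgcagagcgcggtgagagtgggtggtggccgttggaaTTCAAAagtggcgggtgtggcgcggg
KIF18B: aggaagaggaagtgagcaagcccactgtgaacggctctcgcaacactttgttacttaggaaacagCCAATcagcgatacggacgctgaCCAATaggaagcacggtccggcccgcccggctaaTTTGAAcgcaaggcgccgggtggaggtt
KIF20B (chr10:89701470-89701619, plus strand) and CENPE (chr4:103198314-103198463, minus strand) had the largest falls among mitotic kinesins. The TTTGAA matches of KIF20B begin 24 and 30 bases after the start, the second beyond the stretch printed, and the CENPE window holds none of the letters searched, as does that of KIF2C.
KIF20B: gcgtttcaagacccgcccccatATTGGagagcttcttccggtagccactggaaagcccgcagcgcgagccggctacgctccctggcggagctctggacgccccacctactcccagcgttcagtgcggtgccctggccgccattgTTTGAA
CENPE: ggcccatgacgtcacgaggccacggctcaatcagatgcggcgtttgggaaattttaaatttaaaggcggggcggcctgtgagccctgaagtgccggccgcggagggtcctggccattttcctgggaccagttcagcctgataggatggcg
For contrast, the transport kinesins KIF3B (chr20:32277531-32277680, plus strand) and KIF3C (chr2:25982468-25982617, minus strand), which were higher with METTL14, hold a CCAAT match and no match, respectively.
KIF3B: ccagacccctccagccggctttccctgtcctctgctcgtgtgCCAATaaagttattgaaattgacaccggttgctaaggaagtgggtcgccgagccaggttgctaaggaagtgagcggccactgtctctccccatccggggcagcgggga
KIF3C: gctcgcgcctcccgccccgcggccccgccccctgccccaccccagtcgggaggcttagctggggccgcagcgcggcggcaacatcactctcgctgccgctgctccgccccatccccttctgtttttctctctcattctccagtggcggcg

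Among motors that set up the spindle, KIF11, the tetrameric motor that pushes spindle poles apart, stood at 79.5 and 89.7 CPM in the controls and at 23.8 and 26.6 CPM with METTL14. This was a 3.36-fold difference (log2 fold change -1.75 with SE 0.12, edgeR adjusted p = 9.78e-05). KIF15, which can stand in for KIF11 in keeping the spindle bipolar, was at 18.3 and 18.3 CPM in the controls and at 3.95 and 5.23 CPM with METTL14. Its fall was 3.96-fold (log2 fold change -1.99 with SE 0.182), so both motors of spindle bipolarity were lower. KIFC1, a minus-end motor that focuses spindle poles and clusters extra centrosomes, stood at 128 and 109.7 CPM in the controls and at 64.9 and 60.3 CPM with METTL14. That is the smallest change among the tested mitotic kinesins, 1.90-fold (log2 fold change -0.92 with SE 0.113, edgeR adjusted p = 0.000569).

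Motors of the kinetochore and of chromosome alignment included the largest change of the mitotic kinesins. CENPE (chr4:103105806-103198409 in GENCODE 29 on GRCh38, minus strand) ties kinetochores to microtubule plus ends and brings stray chromosomes to the spindle equator. Control libraries held 269 and 372 CENPE counts and METTL14 libraries 29 and 38, which is 14.0 and 19.1 CPM against 1.49 and 1.88 CPM. Both METTL14 libraries were far below both controls, and the level was 9.78-fold lower (log2 fold change -3.29 with SE 0.247, edgeR adjusted p = 0.000123). KIF18A, which damps the movements of chromosomes by limiting the growth of kinetochore microtubules, stood at 25.0 and 22.6 CPM in the controls and at 4.42 and 5.93 CPM with METTL14 (4.6-fold lower, log2 fold change -2.20 with SE 0.181). Of its exon bases, 1.71% also lie in METTL15 on the opposite strand. KIF18B, which shortens astral microtubules, was at 51.8 and 32.0 CPM in the controls and at 14.0 and 13.3 CPM with METTL14. The controls differed more for KIF18B than for most members, and the groups still did not overlap (log2 fold change -1.61 with SE 0.225, edgeR adjusted p = 0.000961). KIF2C, a depolymerase that corrects faulty kinetochore attachments, fell from 134 and 117 CPM to 58.0 and 54.4 CPM (2.23-fold, log2 fold change -1.16 with SE 0.111).

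The chromokinesins, which bind chromosome arms, were among the more abundant members. KIF22, which pushes chromosome arms away from the poles, stood at 152 and 132 CPM in the controls and at 61.6 and 61.8 CPM with METTL14 (2.30-fold lower, log2 fold change -1.20 with SE 0.109). KIF4A, which acts on chromosome arms and at the spindle midzone, stood at 122 and 102 CPM in the controls and at 35.4 and 34.9 CPM with METTL14 (3.19-fold lower, log2 fold change -1.67 with SE 0.119). KIF4A has a near-identical copy, KIF4B, which makes its counts less certain. KIF4B had 2 counts in control replicate 2 and none in the other libraries.

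Each of the 4 motors of cytokinesis was lower by more than 3-fold. KIF20B (chr10:89701610-89774939 in GENCODE 29, plus strand), a midzone motor needed for the completion of cytokinesis, had 43.0 and 42.5 CPM in the controls and 5.39 and 5.78 CPM with METTL14. The replicates of each group lay close together, and the level was 7.64-fold lower (log2 fold change -2.93 with SE 0.13, edgeR adjusted p = 7.32e-05). KIF20A, which brings the chromosomal passenger complex to the midzone, stood at 132 and 115 CPM in the controls and at 29.3 and 31.6 CPM with METTL14 (4.04-fold lower, log2 fold change -2.02 with SE 0.115). KIF23, the motor subunit of the centralspindlin complex, stood at 105 and 91.6 CPM in the controls and at 23.5 and 26.7 CPM with METTL14 (3.92-fold lower, log2 fold change -1.97 with SE 0.124). KIF14, which brings citron kinase to the midbody, stood at 13.2 and 16.4 CPM in the controls and at 3.70 and 5.43 CPM with METTL14 (3.23-fold lower, log2 fold change -1.69 with SE 0.229, edgeR adjusted p = 0.000854). In all 4, both METTL14 libraries were below both controls.

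**Figure D2:**
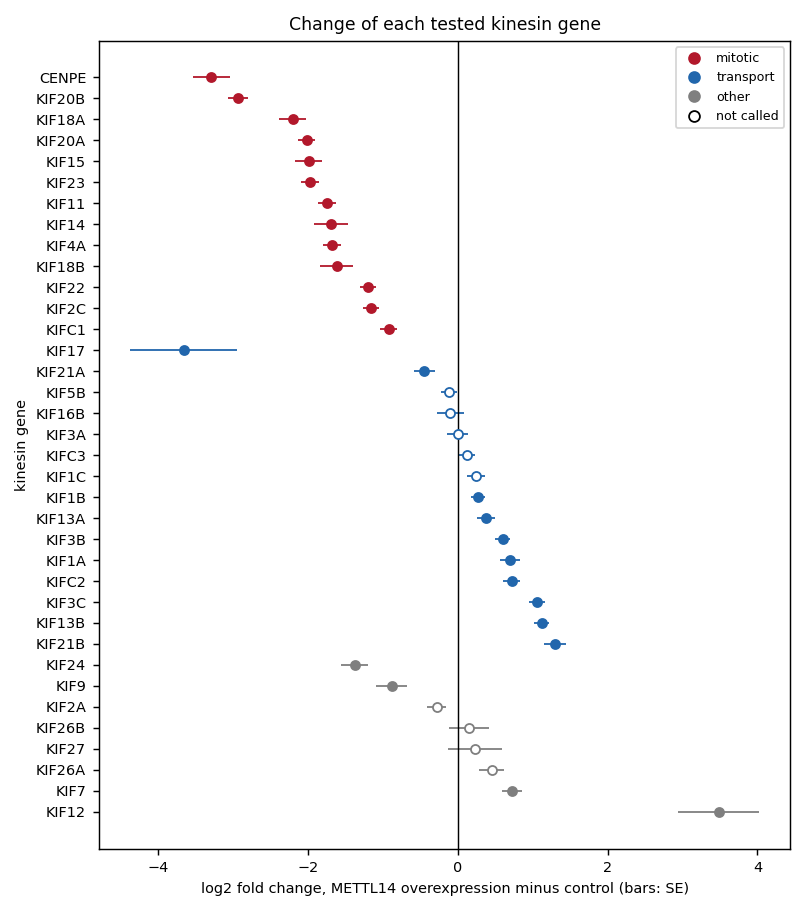
Log2 fold change (METTL14 overexpression minus control) of the 36 tested kinesin genes, with bars of 1 standard error from the edgeR fit. Filled points passed an adjusted p of 0.05. The 13 mitotic kinesins lie between -3.29 and -0.92, and the transport kinesins lie between -0.45 and 1.30 apart from KIF17 at -3.65.

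Transport kinesins did not move as a block. Of the 15 tested, 8 were higher with METTL14, 2 were lower and 5 were not called, beside 27.0% higher and 28.1% lower among all tested genes. Their median log2 fold change was 0.27. Without KIF17 the counts were 8 higher and 1 lower of 14, with a median of 0.33. The groups did not overlap in the higher direction for 10 of them and in the lower direction for 2, beside 39.8% and 40.0% of tested genes.

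The largest rises among transport kinesins were those of KIF21B, KIF13B and KIF3C. KIF21B (chr1:200969390-201023700 in GENCODE 29, minus strand), known from neurons and T cells as a motor that also restrains microtubule growth, stood at 12.3 and 16 CPM in the controls and at 35.6 and 34.0 CPM with METTL14 (2.46-fold higher, log2 fold change 1.30 with SE 0.151, edgeR adjusted p = 0.000463). KIF13B, a vesicle motor that binds the scaffold DLG1, stood at 38.3 and 39.5 CPM in the controls and at 85.5 and 84.1 CPM with METTL14 (2.18-fold higher, log2 fold change 1.12 with SE 0.0982). KIF3C, an accessory member of the heterodimeric kinesins, stood at 36.3 and 40.4 CPM in the controls and at 82.7 and 77.6 CPM with METTL14 (2.09-fold higher, log2 fold change 1.06 with SE 0.109, edgeR adjusted p = 0.000299). For each of these genes both METTL14 libraries were well above both controls, and the calls remained for a change beyond 1.5-fold.

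Smaller rises were measured for KIFC2, KIF1A, KIF3B, KIF13A and KIF1B. KIFC2, a minus-end motor first described in neurons, stood at 24.4 and 26.9 CPM in the controls and at 42.5 and 41.9 CPM with METTL14 (log2 fold change 0.72 with SE 0.114, edgeR adjusted p = 0.00165). Of its exon bases, 21.7% also lie in FOXH1 on the opposite strand, which leaves its counts less certain. KIF1A, which carries synaptic vesicle precursors, stood at 76.3 and 59.3 CPM in the controls and at 112 and 108 CPM with METTL14 (log2 fold change 0.70 with SE 0.134, edgeR adjusted p = 0.00383). The 5 neural markers were each below a mean of 1 CPM in both groups. KIF3B, a motor of ciliary transport, stood at 70.9 and 76.0 CPM in the controls and at 110.4 and 112 CPM with METTL14 (log2 fold change 0.60 with SE 0.0968, edgeR adjusted p = 0.00179). KIF13A, which moves recycling endosomes, stood at 42.6 and 50.2 CPM in the controls and at 61.4 and 59.6 CPM with METTL14 (log2 fold change 0.38 with SE 0.118, edgeR adjusted p = 0.0275). KIF1B, which carries mitochondria and vesicles, stood at 180.4 and 195 CPM in the controls and at 222 and 232 CPM with METTL14 (log2 fold change 0.27 with SE 0.0982, edgeR adjusted p = 0.0477). Groups did not overlap for any of the 5. KIF13A and KIF1B were no longer called without METTL14 replicate 1 or without METTL14 replicate 2, and KIF1B also under DESeq2 (0.29, adjusted p = 0.0541) and without the filter on low counts (0.27). With the trend on GC content and transcript length removed, the calls of KIF13A, KIF1A, KIF1B and KIFC2 were lost (log2 fold changes 0.26, 0.02, 0.01 and 0.23). Removal of the length trend alone lost the calls of KIF13A (0.20) and KIF1B (0.02). Removal of the GC trend alone lost that of KIF1B (0.24).

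Only KIF17 and KIF21A were lower among the transport kinesins. KIF17, a motor of dendritic vesicles and of cilia, was counted 73 and 28 times in control libraries against 6 and 2 times with METTL14, or 3.80 and 1.44 CPM against 0.308 and 0.0988 CPM. Both METTL14 libraries were below both controls (log2 fold change -3.65 with SE 0.715, edgeR adjusted p = 0.00419), and the gene entered the test only through the counts of the controls. Summed over each group, the ratio of counts to total counts was 12.5-fold lower, with an exact 95% interval of 6.11 to 29.8 that covers counting error only. The controls differed from each other, and the log2 fold change ran from -4.64 to -2.79 when single libraries were left out. KIF21A, which restrains microtubule growth at the cell edge, stood at 30.3 and 33.7 CPM in the controls and at 21.2 and 25.7 CPM with METTL14 (1.36-fold lower, log2 fold change -0.45 with SE 0.139, edgeR adjusted p = 0.0286). Its call was lost without METTL14 replicate 1 (log2 fold change -0.31), with library totals only (-0.40) and with the GC trend removed (-0.32).

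No call was made for 5 transport kinesins, among them the most abundant ones. KIF5B, the ubiquitous heavy chain of conventional kinesin, stood at 264 and 294 CPM in the controls and at 247 and 269.7 CPM with METTL14, with overlapping groups (log2 fold change -0.11 with SE 0.106, edgeR adjusted p = 0.403). Without control replicate 1 its log2 fold change was -0.18. KIF1C, which carries vesicles and mRNA, stood at 311 and 249.8 CPM in the controls and at 337 and 328 CPM with METTL14, without overlap (log2 fold change 0.25 with SE 0.124, edgeR adjusted p = 0.131). It was called higher with library totals only (0.30) and with the replicate number as a term (0.25). Without control replicate 1 it was at 0.42. The remaining 3 were KIFC3, a minus-end motor of cell junctions (0.13), KIF16B, a motor of early endosomes (-0.10), and KIF3A, the partner of KIF3B (-0.002). KIF3A stood at 18.4 and 22 CPM in the controls and at 19.7 and 20.6 CPM with METTL14, so the METTL14 libraries lay between the controls. KIF16B stood at 11.3 and 14.9 CPM in the controls and at 11.6 and 12.9 CPM with METTL14, again between them. KIFC3 stood at 60.6 and 62.0 CPM in the controls and at 70.3 and 63.6 CPM with METTL14.

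Of the 8 tested kinesins with other roles, 2 were higher, 2 were lower and 4 were not called, with a median log2 fold change of 0.19. These shares are close to the 27.0% higher and 28.1% lower of all tested genes, and without KIF12 1 of 7 was higher. KIF24, a centriolar depolymerase that holds back the growth of cilia, stood at 27.9 and 23.7 CPM in the controls and at 11.3 and 8.59 CPM with METTL14 (2.59-fold lower, log2 fold change -1.37 with SE 0.175, edgeR adjusted p = 0.000662). Among the tested transport and other kinesins with a promoter entry, KIF24 was the 1 member with such letters near the start (TTCGAA). KIF9, a kinesin of motile cilia and flagella, stood at 10 and 10.3 CPM in the controls and at 6.42 and 4.64 CPM with METTL14 (1.84-fold lower, log2 fold change -0.88 with SE 0.208, edgeR adjusted p = 0.00949). Its call was lost without METTL14 replicate 2 (log2 fold change -0.66). KIF7, a regulator of Hedgehog signalling at the tip of the cilium, stood at 25.0 and 21.1 CPM in the controls and at 39.3 and 37.0 CPM with METTL14 (1.65-fold higher, log2 fold change 0.73 with SE 0.129, edgeR adjusted p = 0.00269). That call was lost with the trend on GC content and length removed (0.20).

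KIF12, an epithelial kinesin linked to kidney and liver disease, was counted 3 and 2 times in control libraries against 27 and 33 times with METTL14 (log2 fold change 3.48 with SE 0.538, edgeR adjusted p = 0.00149), and it entered the test only through the METTL14 libraries. From the summed counts the level was 12.1-fold higher, with an exact 95% interval of 4.91 to 38.7 that covers counting error only, so its size is uncertain. KIF2A, a depolymerase of spindle poles and of neurons, stood at 26.7 and 29.5 CPM in the controls and at 21.6 and 24.8 CPM with METTL14. It was not called (-0.28, edgeR adjusted p = 0.105) and was at -0.34 without control replicate 1. KIF26A, a kinesin without motor activity that acts in signalling, stood at 90.7 and 63.3 CPM in the controls and at 109 and 102 CPM with METTL14. Its difference (log2 fold change 0.46 with SE 0.167) missed the threshold by little (edgeR adjusted p = 0.0507) and passed it under DESeq2 (0.47, adjusted p = 0.0208) and limma-voom (0.48, adjusted p = 0.0423). Without control replicate 1 it was 0.75 and without control replicate 2 it was 0.22. A fit without 1 control takes the gene's own spread from the METTL14 pair alone, so only its effect size is given here. KIF26B (0.15) and KIF27 (0.23) lay between 2.08 and 4.16 CPM in every library and were not called. KIF27 was at 0.81 without control replicate 2.

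Close relatives within the family did not always change together. Values of relatives are set side by side, and differences between genes were not tested. The pair KIF21A and KIF21B was called in opposite directions (log2 fold changes -0.45 and 1.30). Of the heterodimeric kinesins, the partners KIF3B and KIF3C were higher (0.60 and 1.06) and the shared subunit KIF3A was at -0.002 and not called. In the KIF1 group, KIF1A (0.70) and KIF1B (0.27) were called higher and KIF1C (0.25) was not called. KIF13A and KIF13B were both higher (0.38 and 1.12). In the depolymerase group KIF2C, a mitotic member, was at -1.16 and KIF2A at -0.28. Of the minus-end motors, KIFC1, of the spindle, was at -0.92, KIFC2 at 0.72 and KIFC3, not called, at 0.13. Within the mitotic class both members of a pair were lower, KIF18A and KIF18B by 4.6-fold and 3.06-fold, and KIF20A and KIF20B by 4.04-fold and 7.64-fold.

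Summed over its members, the mitotic class came to 1017 and 907 CPM in the controls and to 329 and 334 CPM with METTL14. The transport class came to 1181 and 1182 CPM in the controls and to 1460.3 and 1470.4 CPM with METTL14. The mitotic sum divided by the transport sum was therefore 0.860 and 0.767 in control libraries against 0.226 and 0.227 with METTL14. Summed CPM is not corrected for transcript length, so these values are not ratios of transcript numbers. The tested transport kinesins have longer transcripts than the mitotic ones (median 6325 against 4217 bases). Neither sum overlapped between the groups, and no p-value was computed for sums over chosen members.

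The order of the kinesins by level also differed between the groups. Per kilobase of the longest annotated transcript, the highest levels in the controls were those of KIF22 (56.6 ± 5.67 CPM per kb, SD, n = 2), KIF5B (47.5 ± 3.67), KIFC1 (43.8 ± 4.64), KIF2C (42.4 ± 4.11) and KIF20A (38.5 ± 3.73). Neighbours in that order from KIF22 to KIF20A differed by less than the sum of their SDs. Of these 5 genes, 4 are mitotic kinesins. With METTL14 the order was led by KIF5B (44.0 ± 2.72 CPM per kb) and KIF1C (42.0 ± 0.772), which differed by less than the sum of their SDs. KIF22 (24.6 ± 0.0715), KIFC1 (23.1 ± 1.19) and KIF1B (21.3 ± 0.622) followed. KIF20A, which ranked 5 of 36 in the controls, ranked 14 with METTL14, and KIF23 went from rank 7 to rank 19. CENPE went from rank 31 to rank 35.

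**Figure D3:**
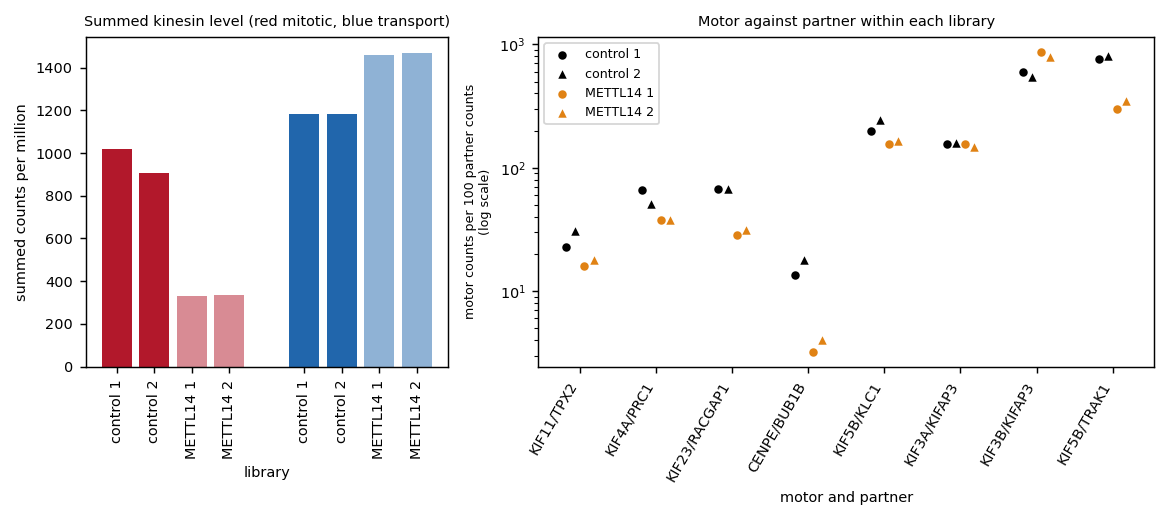
Left, CPM summed over the mitotic and over the transport kinesins in each library. Right, motor counts per 100 counts of a partner gene in each library, on a log axis. The mitotic sums are 1017 and 907 CPM in the controls and 329 and 334 CPM with METTL14, and CENPE per 100 BUB1B counts goes from 13.4 and 17.9 to 3.23 and 4.01.

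Partners of the mitotic kinesins were lower as well. Of 13 mitotic partners 12 were lower and none was higher, with a median log2 fold change of -1.23, beside 28.1% lower and 27.0% higher among all tested genes. The 4 with the smallest p were HMMR, a spindle protein (-2.86), CENPF, a kinetochore protein (-2.31), ECT2, the activator of RhoA in cytokinesis (-1.30), and BUB1B, the checkpoint kinase relative BubR1 that binds CENPE (-1.18). TPX2, which holds KIF11 on spindle microtubules, was at -1.09, PRC1, the midzone crosslinker that recruits KIF4A, at -1.06, and RACGAP1, the other subunit of centralspindlin beside KIF23, at -0.81. INCENP, the scaffold of the passenger complex, was the 1 partner not called (-0.08, edgeR adjusted p = 0.614) and is named because it was the exception, after its value was seen. Of the exon bases of PRC1, 65.2% are shared with VPS33B on the same strand, which leaves its counts less certain.

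Counts of a motor relative to its partner within a library show the pairs apart from library size. CENPE had 13.4 and 17.9 counts per 100 counts of BUB1B in control libraries against 3.23 and 4.01 with METTL14. KIF23 had 66.9 and 66.7 counts per 100 counts of RACGAP1 in control libraries against 28.4 and 31.3 with METTL14. KIF4A had 65.6 and 50.5 per 100 counts of PRC1 in control libraries against 38.0 and 37.7 with METTL14. KIF11 had 22.9 and 31.0 per 100 counts of TPX2 in control libraries against 15.9 and 17.8 with METTL14. In all 4 pairs the motor was lower relative to its partner in both METTL14 libraries than in both controls. The pairs were chosen for their known contact, and no share over other gene pairs was computed. Of single tested genes, 79.8% had groups without overlap in either direction. With 2 libraries per group the differences between genes were not tested.

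Of 17 tested light chains and cargo adaptors, 8 were higher, 1 was lower and 8 were not called, with a median log2 fold change of 0.21. The share called in either direction is near the 55.1% of all tested genes, of which 27.0% were higher and 28.1% lower. The list's 4 smallest p-values belonged to TRAK1, which links kinesin to mitochondria (1.17), MAPK8IP2 and MAPK8IP3, JNK scaffolds that bind kinesin (2.35 and 0.75), and KIFBP, a kinesin-binding protein that keeps some motors off microtubules (-0.86), which was the member that fell. KLC1, a light chain of conventional kinesin, was higher (0.34, edgeR adjusted p = 0.0236), and KIFAP3, the adaptor of KIF3A and KIF3B, was not called (0.06, edgeR adjusted p = 0.762). KLC1 has 2 rows in the files that share exons, and the row with the higher mean was used. KIF5B had 198 and 244 counts per 100 counts of KLC1 in control libraries against 155 and 165 with METTL14, and 761 and 800.1 counts per 100 counts of TRAK1 in control libraries against 297 and 345 with METTL14. KIF3B had 601 and 546 counts per 100 counts of KIFAP3 in control libraries against 870.0 and 796 with METTL14, whereas KIF3A had 156 and 158 in control libraries against 155 and 146 with METTL14. Groups were separate in each of these 4 pairs, by a small margin for KIF3A with KIFAP3. They were also separate in either direction for 79.8% of single tested genes, and no share over other gene pairs was computed.

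Cytoplasmic dynein and dynactin, the minus-end transport machinery opposite to most kinesins, were called about as often as all genes. Of 22 tested genes 3 were higher, 8 were lower and 11 were not called, with a median log2 fold change of -0.15, beside 55.1% called among all tested genes. The lower count was 4 without METTL14 replicate 1, 3 without METTL14 replicate 2, 10 without control replicate 1 and 11 without control replicate 2, and the higher count was 1 without either METTL14 library and 5 without either control. The heavy chain DYNC1H1 was higher (0.73, edgeR adjusted p = 0.00262), while the light chain DYNLL1 (-0.98), the light intermediate chain DYNC1LI1 (-0.56) and the dynactin subunit DCTN3 (-0.75) were lower. Of 15 regulators of division genes 9 were lower, 2 were higher and 4 were not called, with a median of -1.04, beside 28.1% lower and 27.0% higher among all tested genes. Among these were MYBL2 (-2.06) and FOXM1 (-1.16), which activate promoters of mitotic genes, RBL1, a pocket protein related to the retinoblastoma protein (-1.73), and TFDP1, the dimer partner of E2F factors (-1.04). The 2 that were higher, named after their values were seen, were CDKN1A, the CDK inhibitor p21 (0.55), and RBL2, the pocket protein p130 of the repressive DREAM complex (0.71). These genes are given for their levels only, and their part in the kinesin values was not tested.

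**Figure D4:**
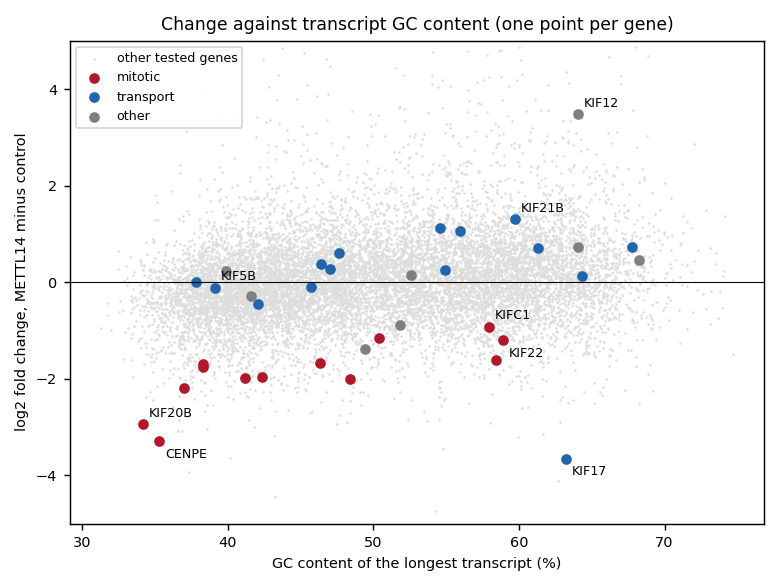
Log2 fold change (METTL14 overexpression minus control) against the GC content of the longest annotated transcript, in percent, with red, blue and dark grey points for mitotic, transport and other kinesins and pale points for the other tested genes. Among the 13 mitotic kinesins the largest falls, KIF20B and CENPE, are those with the lowest GC content, 34.20% and 35.28%.

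Within the mitotic class the size of the fall went along with base composition and with transcript length. KIF20B (GC content 34.20%) and CENPE (35.28%) had the largest falls, and KIF22 (58.88%) and KIFC1 (57.95%) were among the smallest. Across the 13 mitotic kinesins the log2 fold change and GC content had a Pearson r of 0.771 and a Spearman rho of 0.819. Against log2 transcript length the same 13 had a Pearson r of -0.747 and a Spearman rho of -0.599. Across the 15 transport kinesins the values for GC content were -0.0286 and 0.411, with KIF17 (63.24%) as the lowest fold change, and across the 12653 tested genes with a transcript length they were 0.185 and 0.205. These are descriptions across genes that share the same 4 libraries. Removal of the GC trend, of the length trend or of both left all 13 mitotic calls in place.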

How the data were processed

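Poly(A) RNA of 2 control and 2 METTL14 overexpression libraries was analysed, with groups and replicate numbers from the labels. The submitters' processing notes list RSEM, StringTie, HISAT2, Bowtie2 and fastp without versions and name the build hg18, yet 20171 of the 20323 gene identifiers are also in GENCODE 29 on GRCh38, which gave the coordinates, transcript lengths and GC content. The use of strand in counting is not stated in the labels or notes. The authors deposited unnormalized expected counts for each gene, which were rounded to whole numbers. Gene rows without a symbol (102) stayed out of named results.

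Counts were tested in edgeR 4.0.16 (R 4.3.3; filterByExpr with a minimum count of 10, TMM, robust quasi-likelihood test, no covariate) with Benjamini-Hochberg adjustment over 12700 genes at 0.05. The biological coefficient of variation was 10.8%. For simulated counts of this comparison 200 genes were changed, and 12561 genes were tested after the filter. The procedure found 47.9% of 48 tested 1.5-fold changes and 82% of 50 tested 2-fold changes. It found 100% of 50 tested 4-fold and of 48 tested 8-fold changes. Of its 183 calls, 21 were on unchanged genes, a share above 0.05. The simulation changed a far smaller share of genes than the 55.1% called in the data. Alternatives were DESeq2 1.42.0, the DESeq2 size factors, limma-voom (limma 3.58.1), other filters, library totals, the replicate number as a block, a change beyond 1.5-fold, a removed length trend and leaving out each library. KIF2A was also counted as mitotic, and KIF21A and KIF21B as other kinesins. Removal of a GC trend, alone or with length, was added after seeing the data. Members, lists and tests were chosen with earlier results of these data known. Every kinesin could be named; from each partner list the 4 members with the smallest p were named, together with TPX2, PRC1, RACGAP1, BUB1B, KLC1, KIFAP3 and TRAK1, and exceptions are pointed out. Promoter sequences are from RefSeq (GRCh38.p14) and matched 35 of the 43 members.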

Additional observations from a re-analysis of the deposited data

How the results depend on the processing

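The 13 mitotic kinesins stayed lower and called in every alternative run, with a median from -1.99 to -1.68 when single libraries were left out. Of the 17 lower and 10 higher kinesins, 16 to 19 and 8 to 12 were called without single libraries. With a GC and length trend removed, 5 kinesins were higher, 4 of them transport and 1 other, and beyond 1.5-fold 4 were higher, 3 of them transport and 1 other. Only 1 transport kinesin was lower beyond 1.5-fold, with the GC trend removed, under the filter of 5 CPM in 2 libraries (where KIF17 was not tested), with library totals only and with KIF21A and KIF21B counted as other; without single libraries it was 1 to 3. Other kinesins lower beyond 1.5-fold numbered 1, and without single libraries 2 to 4 were higher and 1 to 3 lower. The transport median was 0.0554 with the GC and length trend removed, 0.0553 with the length trend removed and 0.36 under the 5 CPM filter, and the log2 ratio of the transport sums, 0.31, was 0.32 with DESeq2 size factors, 0.34 with that filter, 0.36 with library totals and 0.31 to 0.32 without single libraries. Adaptors had 5 higher and 3 lower with GC and length removed, 3 higher beyond 1.5-fold, 2 lower with the GC or the length trend removed, and 1 to 3 lower without single libraries. Dynein and dynactin genes had 1 higher under DESeq2, 0 higher and 1 lower beyond 1.5-fold, and 1 to 5 higher and 3 to 11 lower without single libraries. Regulators of division had 1 higher with GC removed and 0 beyond 1.5-fold. Over all genes 1416 were higher and 1357 lower beyond 1.5-fold, and 2304 to 4553 were lower without single libraries (2304 without METTL14 replicate 2, 2354 without METTL14 replicate 1). Beyond 1.5-fold the test asks a stricter question. A fit without 1 library takes the spread of a gene from the 2 libraries of the other group alone. Its counts of calls therefore depend on which group keeps 2 libraries. The cause of the other moves was not tested.

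Some log2 fold changes turned sign, all of them in kinesins that were not called. Removal of the GC and length trend gave -0.20 for KIF1C, -0.29 for KIF26A, -0.34 for KIF26B, 0.21 for KIF3A, 0.0554 for KIF5B and -0.28 for KIFC3. Removal of the GC trend gave 0.28 for KIF3A, 0.12 for KIF5B and -0.15 for KIFC3, and removal of the length trend gave -0.12 for KIF26B. KIF3A, at -0.002, was also 0.0108 with DESeq2 and with its size factors, 0.0255 with the 5 CPM filter, 0.0445 with library totals, 0.0032 with limma-voom and from -0.11 to 0.13 in the leave-one-out fits. In the leave-one-out fits KIF16B reached 0.11 and KIF27 ranged from -0.18 to 0.81.

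Same-numbered libraries did not deviate together (correlation 0.0437), so the numbers were not taken as pairs. With the replicate number as a block KIF1C and KIF26A were called in addition, no kinesin call was lost, 2 adaptors were lower instead of 1, and KIF3A was at 0.00201. Summing the rows of a symbol was not run because each kinesin had 1 row. Kinesins under about 5 CPM, such as KIF17, KIF12, KIF26B and KIF27, are limited by depth.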

Other observations

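The pentamer GGACT is among the preferred sequence contexts of the m6A writer complex. Searched after the values above were seen, in the longest annotated transcript and on the sense strand, its median frequency was lower in mitotic than in transport kinesins. The median was 0.581 per kb over the 13 tested mitotic kinesins and 1.12 per kb over the 15 tested transport kinesins, beside 0.947 per kb over all tested genes. The classes overlapped: 5 of the 13 mitotic kinesins and 10 of the 15 transport kinesins lay above that value. Mitotic kinesins ran from KIF23 (0.269 per kb) to KIF18B (1.42), and transport kinesins from KIF5B (0.170) to KIFC2 (1.96). KIF5B, with the lowest value of the tested kinesins, was not called. The log2 fold change and GGACT per kb had a Pearson r of 0.450 and a Spearman rho of 0.426 across the 36 tested kinesins. Across 12653 genes the values were 0.0608 and 0.0842. The 36 include KIF12 and KIF17, which entered the test through 1 group only. KIF12 had both the highest GGACT frequency (2.28 per kb) and the highest log2 fold change (3.48). The correlation over all tested kinesins without KIF12 and KIF17 was not computed. Across the 13 mitotic kinesins, which include neither gene, the Pearson r was 0.502 and the Spearman rho 0.484. Across the 15 transport kinesins, which include KIF17, they were 0.294 and 0.55. These are descriptions across genes of the same 4 libraries. GC content differs between the classes too, with a median of 42.33% in mitotic and 54.60% in transport kinesins, and methylation was not measured here.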
